A study of Sus scrofa with 8 samples.

Results

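The 7 genes described here, HMOX1, NQO1, GCLC, GCLM, TXNRD1, SRXN1 and GPX2, are classical targets of the antioxidant transcription factor NRF2. They were taken by symbol from the table of estimated counts per gene, in which each symbol belonged to 1 gene, and the rows of a gene were summed. They are 7 of 30282 genes in the table and 7 of the 14475 that passed the edgeR expression filter. RNA came from porcine pancreatic ductal organoids (PPDO), 3-dimensional epithelial cultures started from duct fragments picked out of digested pig pancreas. The lines are Em (embryonic), EPN1 and EPN2 (early postnatal) and LPN (late postnatal, before reproductive maturity). Donors were German landrace pigs, wild-type or carrying INS-eGFP, a reporter driven by the insulin promoter in beta cells, and which line came from which is not given in the sources used here. Each of the 4 lines was kept for 7 days in complete medium (titled Control) and in differentiation medium (titled Treated), which gives 8 libraries with 4 lines per medium and 1 culture per line and medium. The complete medium held prostaglandin E2, gastrin, EGF, FGF10 and the modulators of WNT and BMP signaling WNT3a, R-spondin and noggin, all of which the differentiation medium lacked. For maintaining PPDO the study replaced WNT3a, R-spondin and noggin with L-WRN conditioned medium. Whether these libraries had it is not stated. Both media contained the N2 and B27 supplements (B27 without vitamin A), the TGF-beta receptor inhibitor A83-01, the ROCK inhibitor Y-27632, nicotinamide and N-acetyl-L-cysteine. N-acetyl-L-cysteine is itself an antioxidant and a source of cysteine for glutathione, so every library comes from cells given it.

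NRF2, encoded by NFE2L2, is held at a low level in unstressed cells by KEAP1, which delivers it to a CUL3 and RBX1 ubiquitin ligase for destruction. Oxidants and electrophiles modify cysteines of KEAP1, NRF2 then accumulates, pairs with a small MAF protein and binds antioxidant response elements, from which BACH1 is the competing repressor. The genes it drives make glutathione (GCLC and GCLM), keep thioredoxin and peroxiredoxins reduced (TXNRD1 and SRXN1), remove peroxides (GPX2), reduce quinones (NQO1) and degrade heme (HMOX1). Because NRF2 is controlled mainly at the level of its protein, RNA abundance does not measure NRF2 itself. The RNA of its target genes can also depend on other factors that bind these elements, such as BACH1, and NRF2 activity was not measured here. In the pancreas NRF2 is best known from the duct-like cells of pancreatic cancer, where NQO1 is often abundant.

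Library totals lay between 40553627 and 47910680 counts, and a count of 0 allows up to 3 counts, or 0.0626 to 0.0740 CPM (counts per 1000000 counts of the scaled library), for counting error only. Levels are given as CPM scaled by the TMM factors of edgeR (0.935 to 1.06), and they are not compared between genes because no transcript lengths were used. The ductal identity named by the labels was checked with KRT7, KRT8, KRT18, EPCAM, CDH1, CFTR and SOX9. All 7 were above the limit in every library, and their summed level was 6534 to 9079.9 CPM in complete medium. In differentiation medium it was 14044 CPM in Em, 9717 in EPN1, 3801 in EPN2 and 5429 in LPN. The EPN2 library in differentiation medium stood apart in keratins and CFTR, with KRT8 at 425 CPM (2271 in complete medium), KRT18 at 45.2 (375), KRT7 at 522 (1934) and CFTR at 2.97 (85.2). EPCAM was at 228 CPM there (341) and SOX9 at 74.3 (86.6), whereas CDH1 was higher than in complete medium, at 2503 (1569). Of 10 macrophage and immune markers, which matter here because macrophages express HMOX1, CD163, C1QA, C1QB, C1QC and MRC1 had at most 3 counts in every library. CD14 had 52.3 CPM in Em in complete medium and 4.70 in differentiation medium, and was higher in differentiation medium in 3 lines. PTPRC had 2.17 and 0.0413 CPM in Em in the same order of media, and CD68 had 3.24 to 49.8 CPM over all libraries. The summed level of the 10 was 29.2 to 59.3 CPM in complete medium and up to 95.2 CPM in differentiation medium. Their part in the results was not tested. Stromal markers summed to at most 9.24 CPM, endothelial markers to at most 44.0 CPM, the 3 of 6 acinar markers found in the table to at most 0.697 CPM and islet markers to at most 21.3 CPM.

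The comparison asks which RNAs change when the growth factors are withdrawn. GCLC fell in differentiation medium, to 56.1% of its level in complete medium, and was the only gene of the 7 past an adjusted p-value under 0.05 in the quasi-likelihood test of edgeR, with the medium as the only term. Over all tested genes the same test called 6.97%, namely 4.10% lower and 2.87% higher, and the count of 1 in 7 rests on GCLC alone. The median log2 fold change (differentiation against complete medium) was -0.54 over the 7 genes and 0.01 over all tested genes. Over the 7 genes it ranged from -0.79 to -0.07 when 1 library was left out, and was -0.07 without EPN2 in complete medium. With the line as a block the call was again GCLC alone, against a background of 10.4% lower and 9.49% higher. DESeq2 without the block called 1 of the 7 (background 9.97% lower) and with the block 2, GCLC and GCLM (background 18.0% lower). RNA from whole cultures cannot tell fewer cells that express a gene from less of its RNA per cell.

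**Figure D1:**
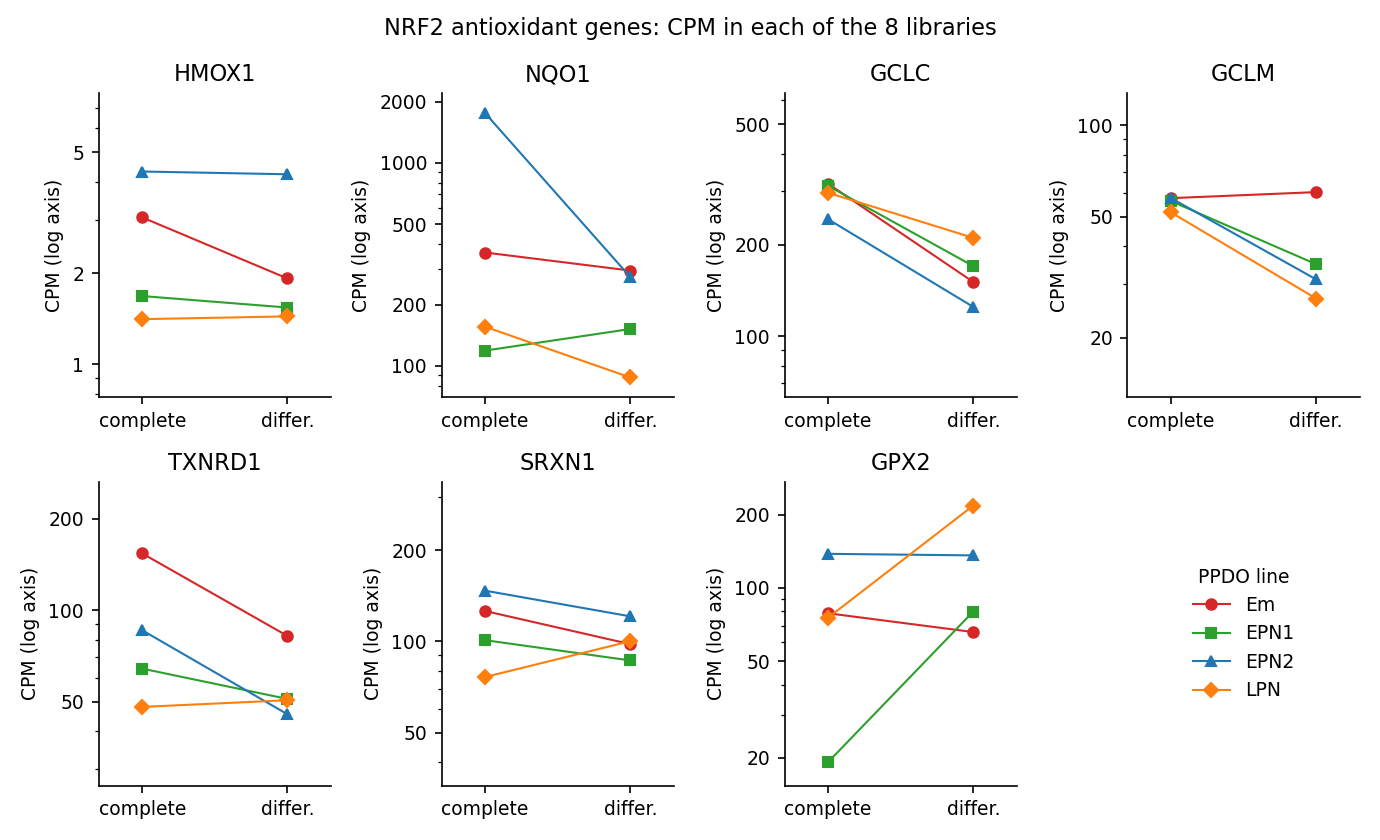
CPM of each gene (log axis) in complete and differentiation medium, with a line joining the 2 libraries of a PPDO line. GCLC is lower in differentiation medium in every line, NQO1 stands at 1759 CPM in EPN2 in complete medium only, and GPX2 goes up in EPN1 and LPN but not in Em or EPN2.

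GCLC (ENSSSCG00000001488) encodes the catalytic subunit of glutamate-cysteine ligase, the enzyme of the first and rate-limiting step of glutathione synthesis. In complete medium it had 318 CPM in Em, 313 in EPN1, 243 in EPN2 and 297 in LPN. In differentiation medium it had 151 CPM in Em, 170.4 in EPN1, 125 in EPN2 and 211 in LPN. The highest library in differentiation medium was below the lowest in complete medium, so the media did not overlap, and GCLC was lower in 4 of 4 lines. Of all tested genes, 9.96% were lower without overlap and 24.2% were lower in all 4 lines. The mean went from 293 ± 34.7 to 164 ± 36.1 CPM (SD, n = 4), a log2 fold change of -0.83 (SE 0.18, 95% interval -1.25 to -0.42, adjusted p = 0.0382 from edgeR). With the line as a replicate block the log2 fold change was -0.85 (SE 0.13, adjusted p = 0.0171). The call was lost when any 1 library other than EPN2 in complete medium was left out, with adjusted p-values of 0.0511 to 0.108, while the log2 fold change stayed between -0.97 and -0.72. Without EPN2 in differentiation medium it was -0.72 (adjusted p = 0.0511), and with the block but without the EPN2 line -0.82 (adjusted p = 0.0293).

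GCLM (ENSSSCG00000037549) encodes the modifier subunit, which binds the catalytic subunit and makes it more efficient. In complete medium its level was nearly the same in all lines, at 57.6 CPM in Em, 56.3 in EPN1, 57.6 in EPN2 and 51.7 in LPN. In differentiation medium it was 60.3 CPM in Em, 34.9 in EPN1, 31.1 in EPN2 and 26.9 in LPN. The postnatal lines were thus lower by 0.69, 0.89 and 0.94 on the log2 scale, whereas Em was 0.07 higher, and this library alone made the media overlap. The log2 fold change of -0.54 (SE 0.25, 95% interval -1.11 to 0.02) was not past the threshold (adjusted p = 0.198 from edgeR), nor was that with the line as a replicate block (adjusted p = 0.0760, log2 fold change -0.62 with SE 0.19). Without Em in differentiation medium it was -0.85 with an adjusted p of 0.0334, and with the block and without the Em line -0.82 with an adjusted p of 0.0321. DESeq2 with the block gave an adjusted p of 0.0290 with all lines.

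Because the subunits moved differently in the lines, the ratio of their counts within a library was taken, which needs no scaling between libraries. It was 5.53 GCLC counts per GCLM count in Em, 5.56 in EPN1, 4.21 in EPN2 and 5.75 in LPN in complete medium. In differentiation medium it was 2.50 in Em, 4.88 in EPN1, 4.04 in EPN2 and 7.84 in LPN. Em had the lowest ratio in differentiation medium and LPN the highest, while EPN1 and EPN2 differed little between the media. The ratio is per count and not per molecule, it was chosen after the values were seen, and no test was made of it.

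TXNRD1 (ENSSSCG00000000843) encodes the cytosolic thioredoxin reductase, a selenoprotein that uses NADPH to reduce thioredoxin. It had 154 CPM in Em, 64.3 in EPN1, 86.0 in EPN2 and 48.1 in LPN in complete medium. The values in differentiation medium were 82.4 CPM in Em, 51.1 in EPN1, 45.5 in EPN2 and 50.6 in LPN. Em was the highest line in both media, and in differentiation medium the other lines lay close together. The log2 fold change was -0.62 (SE 0.37, 95% interval -1.47 to 0.23, adjusted p = 0.312 from edgeR), and -0.18 without Em in complete medium. With the line as a replicate block it was -0.52 (SE 0.20, adjusted p = 0.111).

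SRXN1 (ENSSSCG00000023298) encodes sulfiredoxin, which repairs peroxiredoxins whose active cysteine has been overoxidised. Its CPM in complete medium were 126 in Em, 101 in EPN1, 147 in EPN2 and 76.4 in LPN, and in differentiation medium 98.0 in Em, 86.6 in EPN1, 121 in EPN2 and 100.2 in LPN. It varied least of the 7 genes, with a 1.92-fold span from the lowest to the highest of the 8 libraries. LPN was higher in differentiation medium by 0.39 on the log2 scale and the other lines were lower by 0.22 to 0.36. The log2 fold change of -0.15 had a 95% interval of -0.63 to 0.33 (SE 0.21) and an adjusted p of 0.680 in edgeR, and it was 0.01 without EPN2 in complete medium.

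GPX2 (ENSSSCG00000002279) encodes the glutathione peroxidase of gastrointestinal epithelium, a selenoprotein that reduces hydrogen peroxide with glutathione. In complete medium it had 78.6 CPM in Em, 19.2 in EPN1, 138 in EPN2 and 75.4 in LPN. In differentiation medium it had 65.8 CPM in Em, 79.9 in EPN1, 136 in EPN2 and 218 in LPN. EPN1 was 4.17-fold and LPN 2.89-fold higher in differentiation medium, whereas EPN2 had a log2 difference of -0.02 and Em was lower by 0.26. It was the only gene of the 7 with a positive log2 fold change, 0.68 (SE 0.58, 95% interval -0.66 to 2.03), and it was not past the threshold (adjusted p = 0.480 from edgeR). With the line as a replicate block the value was 0.82 (SE 0.45, adjusted p = 0.228). Leaving out 1 library moved it from 0.27 without LPN in differentiation medium to 1.11 without EPN2 in complete medium. Rows for the stretch downstream of the annotated gene end held 1.57% of its counts and at most 0.105% of those of the other 6 genes.

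NQO1 (ENSSSCG00000002754) encodes the quinone reductase that turns quinones into hydroquinones by transferring a pair of electrons, which avoids reactive semiquinones. In complete medium it had 362 CPM in Em, 119 in EPN1, 1759 in EPN2 and 156 in LPN, a 14.8-fold span. In differentiation medium it had 295 CPM in Em, 152 in EPN1, 274 in EPN2 and 87.7 in LPN, a 3.36-fold span. The EPN2 library in complete medium thus stood far above all the others, and the largest difference between media among the 7 genes in any line was the 6.41-fold lower NQO1 of EPN2 in differentiation medium. EPN1 was higher in differentiation medium by 0.36 on the log2 scale. The log2 fold change was -1.57 (SE 0.88, 95% interval -3.59 to 0.45, adjusted p = 0.284 from edgeR). Without EPN2 in complete medium it was -0.07, and with the line as a replicate block -0.83 with all lines (SE 0.51, adjusted p = 0.280) and -0.26 without the EPN2 line.

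HMOX1 (ENSSSCG00000039745) encodes the inducible heme oxygenase, which opens heme to biliverdin, iron and carbon monoxide. It was scarce, with 58 to 191 counts per library. In complete medium it had 3.05 CPM in Em, 1.68 in EPN1, 4.32 in EPN2 and 1.41 in LPN, and in differentiation medium 1.92 in Em, 1.54 in EPN1, 4.23 in EPN2 and 1.44 in LPN. The lines had the same order in both media, although EPN1 and LPN lay within counting error of each other in both media (70 counts, exact Poisson 95% interval 54.6 to 88.4, and 58 counts, 44.0 to 75.0, in complete medium). EPN2 was the highest line in either medium. Between the media only Em differed by more than 0.13 on the log2 scale, at -0.67, with 141 counts (interval 119 to 166) against 93 (75.1 to 114). The log2 fold change was -0.20 (SE 0.51, 95% interval -1.36 to 0.96, adjusted p = 0.830 from edgeR) and turned to 0.15 without EPN2 in complete medium.

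**Figure D2:**
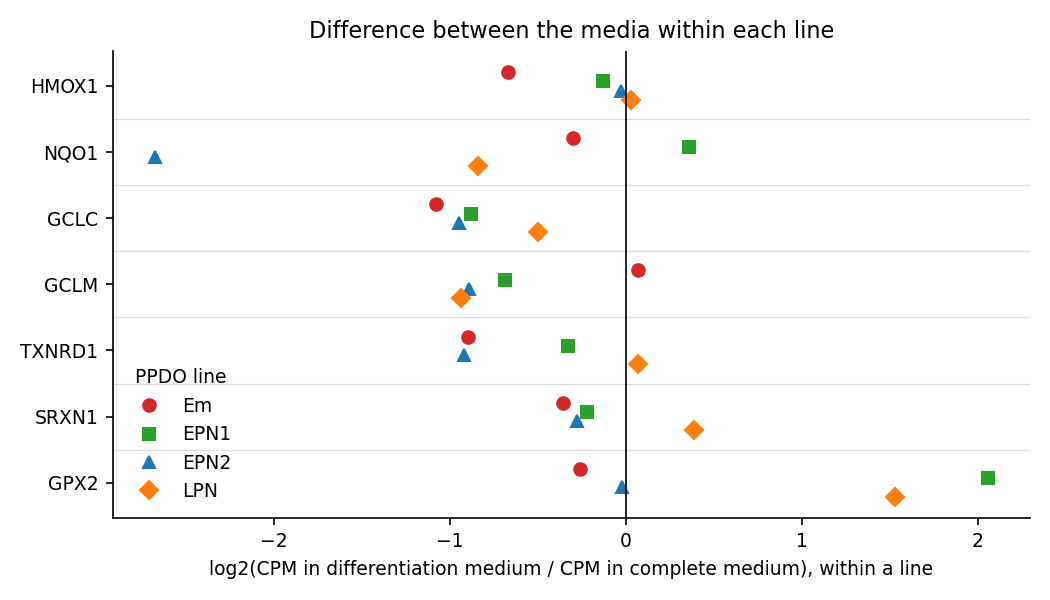
Difference between the media within each line for the 7 genes, as log2 of CPM in differentiation over CPM in complete medium, with 1 symbol per line. All 4 symbols of GCLC lie below 0, from -1.08 in Em to -0.50 in LPN, whereas those of GPX2 run from -0.26 in Em to 2.06 in EPN1 and those of NQO1 from -2.68 in EPN2 to 0.36 in EPN1.

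Read by line, the 7 genes were lower in differentiation medium in 7 of 7 cases in EPN2, 6 of 7 in Em, 5 of 7 in EPN1 and 3 of 7 in LPN. These counts include signs of differences near 0. On the log2 scale they are GPX2 (-0.02) and HMOX1 (-0.03) in EPN2, GCLM (0.07) in Em, and HMOX1 (0.03) and TXNRD1 (0.07) in LPN. Of all tested genes 50.7% were lower in EPN2, 49.8% in Em, 49.6% in EPN1 and 50.7% in LPN. The library of EPN2 in differentiation medium is also the one in which the summed ductal markers were lowest (3801 CPM, against 6662 in complete medium), and the part of this in the EPN2 differences was not tested. Among these markers CDH1 was higher in that library, at 2503 against 1569 CPM in complete medium. The median log2 difference of the 7 genes was -0.89 in EPN2, -0.36 in Em, -0.22 in EPN1 and 0.03 in LPN. Each line has 1 library per medium, so these differences have no replicate check and were not tested against each other. In Em the most negative differences were those of GCLC, TXNRD1 and HMOX1 (-1.08, -0.90 and -0.67), and in LPN those of GCLM, NQO1 and GCLC (-0.94, -0.84 and -0.50).

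**Figure D3:**
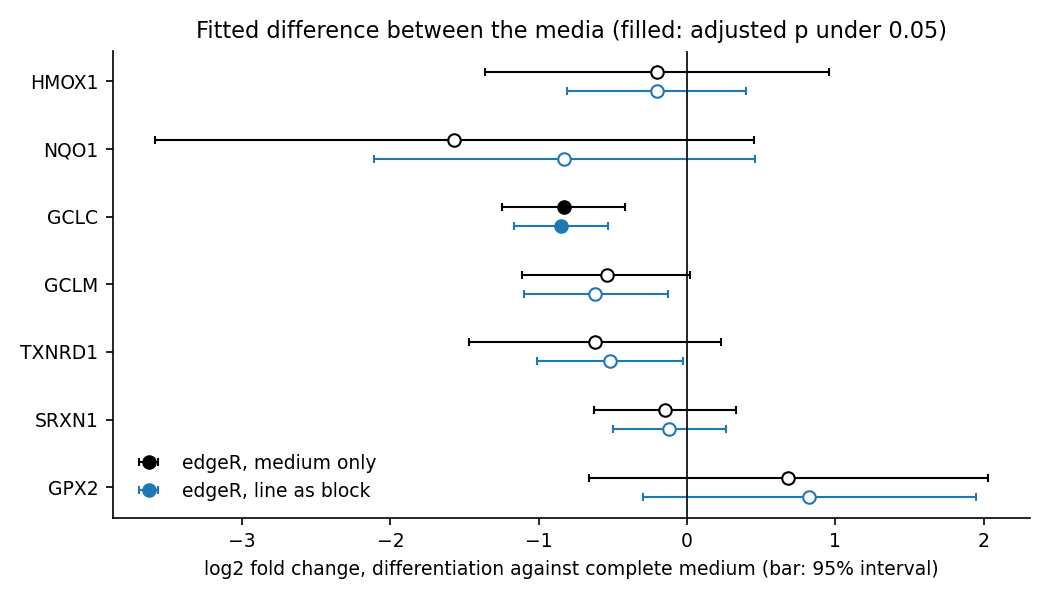
Fitted log2 fold change of each gene with its 95% interval, from edgeR with the medium as the only term (black) and with the line as block (blue), where filled points are past an adjusted p-value under 0.05. Only GCLC is filled, in both fits, and the interval of NQO1 narrows from -3.59 to 0.45 to -2.11 to 0.46 with the block.

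The 7 genes were also compared between the lines. The geometric mean over both media was highest in EPN2 for NQO1 (695 CPM, against 117 in LPN, the lowest), HMOX1 (4.27 against 1.43 in LPN), SRXN1 (133 against 87.5 in LPN) and GPX2 (137 against 39.1 in EPN1). It was highest in Em for TXNRD1 (113 CPM, against 49.3 in LPN) and GCLM (58.9 against 37.3 in LPN), and highest in LPN for GCLC (250.4 against 174 in EPN2). By this mean LPN was the lowest line for 5 of the 7 genes, and the share of all tested genes lowest in LPN was not computed. For HMOX1, LPN and EPN1 lay within counting error of each other. In differentiation medium alone TXNRD1 was lowest in EPN2 (45.5 CPM) and SRXN1 in EPN1 (86.6 CPM). In the F test of edgeR for any difference between lines, with the medium as a further term, none of the 7 was past an adjusted p-value under 0.05, and 5.14% of all tested genes were. At an unadjusted p under 0.05 there were 3 of 7, HMOX1 (adjusted p = 0.101), TXNRD1 (0.120) and NQO1 (0.134), and of all tested genes 28.2% were. The same 3 genes were past the threshold in the likelihood ratio test of DESeq2 (adjusted p = 0.000207, 0.00551 and 0.000921), which called 31.6% of all tested genes. GCLC and GCLM spanned 1.44-fold and 1.58-fold between the lines. The 2 libraries of a line, which come from different media, are its only replicates in these tests.

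The regulators of NRF2 activity were compared between the media as well. NFE2L2, which encodes NRF2, had 313, 168, 278 and 239.6 CPM in Em, EPN1, EPN2 and LPN in complete medium and 356, 276, 342 and 347 CPM in differentiation medium. It was higher in 4 of 4 lines, as were 23.9% of all tested genes, and was not past the threshold (adjusted p = 0.234 from edgeR, log2 fold change 0.40 with SE 0.20, and adjusted p = 0.0636 with the line as a replicate block). KEAP1, its negative regulator, was also higher in 4 of 4 lines, at 69.3, 70.2, 104 and 108 CPM against 85.2, 108, 167 and 169 CPM in the same order of lines. It was not past the threshold without the block (adjusted p = 0.201, log2 fold change 0.59 with SE 0.27) and was past it with the block (adjusted p = 0.0240, log2 fold change 0.56 with SE 0.10). The repressor BACH1 went in opposite directions in the lines, being lower in Em (73.2 against 35.3 CPM) and EPN1 (89.5 against 71.1) and higher in EPN2 (102 against 236) and LPN (95.8 against 143), with an adjusted p of 0.619 from edgeR. Its log2 fold change of 0.43 was -0.12 at the lowest when 1 library was left out.

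Of 14 regulators, all of which were tested, 2 were past the threshold, both lower, and with the block 3 were lower and 1 higher. Of all tested genes 4.10% were lower and 2.87% higher, and with the block 10.4% and 9.49%. MAFF, a small MAF partner of NRF2, fell from 52.1 ± 25.5 CPM down to 6.47 ± 6.18 CPM (SD, n = 4), with an adjusted p of 0.0431 in edgeR and a log2 fold change of -3.01 (SE 0.70). It was lower in each line, at 82.7 against 5.45 CPM in Em, 62.7 against 2.67 in EPN1, 26.8 against 15.5 in EPN2 and 36.0 against 2.28 in LPN. NFE2L1, a relative of NRF2 that binds the same elements, fell from 491 ± 16.5 CPM down to 342 ± 30.2 CPM (adjusted p = 0.0382, log2 fold change -0.52 with SE 0.11). MAFF was past the threshold only in the fits without EPN2 in complete or in differentiation medium (adjusted p up to 0.115 in the other fits that leave out 1 library), and NFE2L1 only without EPN2 in differentiation medium (adjusted p up to 0.121). MAFG, another small MAF gene, passed with the block alone (adjusted p = 0.0343, and 0.0895 without it). The third small MAF gene, MAFK, had 42.8 ± 3.73 and 38.9 ± 3.03 CPM (adjusted p = 0.477).

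**Figure D4:**
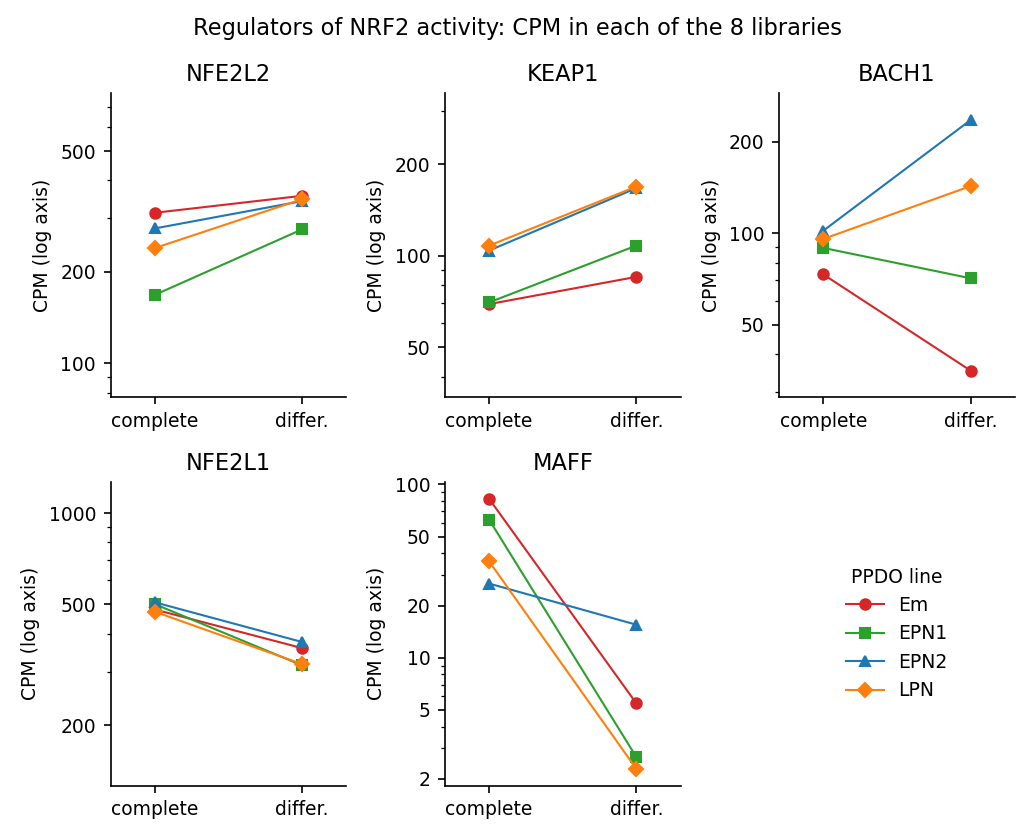
CPM (log axis) of 5 regulators in complete and differentiation medium, with a line joining the 2 libraries of a PPDO line. NFE2L2 and KEAP1 are higher in differentiation medium in all 4 lines, NFE2L1 and MAFF are lower in all 4, and BACH1 is lower in Em and EPN1 and higher in EPN2 and LPN.

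Among 28 further NRF2 target genes, of which 25 were in the table and tested, 4 were past the threshold and all 4 were lower. Of all tested genes 4.10% were lower, and 10.4% with the line as a replicate block. The median log2 fold change of the 25 was -0.47, beside -0.54 for the 7 genes and 0.01 for all tested genes. When 1 library was left out, the median of the 25 was -0.66 to -0.22 and that of the 7 genes -0.79 to -0.07. With the line as a replicate block 9 of the 25 were lower and 1, the heme transporter gene SLC48A1, was higher (adjusted p = 0.0340). TXN, which encodes thioredoxin, the substrate of TXNRD1, fell from 564 ± 138 CPM down to 203 ± 15.1 CPM (adjusted p = 0.0119 from edgeR, log2 fold change -1.47 with SE 0.19). Its call held in all 8 fits that leave out 1 library, with an adjusted p of at most 0.0489, and it was the only gene named from these lists of which that holds. ME1, the cytosolic malic enzyme that supplies NADPH, fell from 156 ± 43.3 CPM down to 30.8 ± 15.7 CPM (adjusted p = 0.0172, log2 fold change -2.35 with SE 0.37). The export pump gene ABCC3 fell from 729 ± 116 CPM down to 226 ± 99.5 CPM (adjusted p = 0.0294, log2 fold change -1.69 with SE 0.33) and the epoxide hydrolase gene EPHX1 from 62.8 ± 2.07 to 37.8 ± 5.30 CPM (adjusted p = 0.0202, log2 fold change -0.73 with SE 0.12). Each of these 4 genes was lower in 4 of 4 lines. ME1 lost its call without EPN1 in either medium or LPN in differentiation medium (adjusted p up to 0.0682), EPHX1 without EPN1 or LPN in either medium (up to 0.0680), and ABCC3 without any of these or Em in complete medium (up to 0.0866).

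Of 17 genes of glutathione synthesis, recycling and breakdown, 14 were tested and 9 had a negative log2 fold change. Past the threshold was 1 of the 14, beside 6.97% of all tested genes. CBS, which starts the conversion of homocysteine to cysteine, fell from 49.7 ± 37.6 CPM down to 7.54 ± 2.52 CPM (adjusted p = 0.0347 from edgeR, log2 fold change -2.72 with SE 0.57), with adjusted p-values up to 0.102 when a library other than EPN1 or EPN2 in complete medium was left out. GSR, which regenerates glutathione, had a log2 fold change of -0.24 with SE 0.22 (adjusted p = 0.504) and OPLAH, which recycles oxoproline to glutamate, 76.0 ± 15.2 and 75.8 ± 24.4 CPM (0.995). The cystine transporter gene SLC7A11, an NRF2 target as well, was lower in 4 of 4 lines at 73.4 ± 58.0 against 16.5 ± 17.1 CPM, without passing the threshold (adjusted p = 0.142, log2 fold change -2.15 with SE 0.82, and adjusted p = 0.0567 with the block). GSS, the synthase of the second step, had 70.3 ± 4.90 and 56.6 ± 8.90 CPM (adjusted p = 0.176), where its symbol stands for 2 genes in the table. With the block the transpeptidase gene GGT6 was past the threshold as well, with means of 1.07 and 11.5 CPM and higher in 4 of 4 lines (adjusted p = 0.00856 from edgeR, and 0.171 without the block).

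The other glutathione peroxidases can be set beside GPX2. GPX1, the widespread cytosolic form, fell from 223 ± 26.8 CPM down to 97.0 ± 30.6 CPM in 4 of 4 lines (adjusted p = 0.0315 from edgeR, log2 fold change -1.20 with SE 0.24). It stayed past the threshold without EPN2 in either medium or Em in differentiation medium and not without the other libraries (adjusted p up to 0.102). GPX4, which protects membrane lipids, had 121 ± 5.38 and 99.3 ± 6.13 CPM (adjusted p = 0.107). GPX3, the secreted form, was higher in 4 of 4 lines, at 3.65 ± 1.54 and 37.8 ± 48.6 CPM, without passing the threshold (adjusted p = 0.0643, log2 fold change 3.37 with SE 0.91). Of the 7 peroxidase genes besides GPX2, 5 were tested and 1 was past the threshold, beside 6.97% of all tested genes. With the line as a replicate block 2 of the 5 were past it, both lower, beside 10.4% lower of all tested genes. GPX5 and GPX6 had at most 1 count in any library.

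Among 15 tested thioredoxin and peroxiredoxin genes, 3 fell and 1 rose, beside 4.10% lower and 2.87% higher of all tested genes. Besides TXN, the peroxiredoxin genes PRDX6 (223 ± 42.5 to 61.1 ± 34.5 CPM, adjusted p = 0.0319 from edgeR, log2 fold change -1.87 with SE 0.38) and PRDX4 (114 ± 30.9 to 48.9 ± 15.5 CPM, adjusted p = 0.0447, log2 fold change -1.22 with SE 0.29) were lower. SESN1, a sestrin, rose from 8.71 ± 2.08 to 18.7 ± 3.98 CPM (adjusted p = 0.0391, log2 fold change 1.10 with SE 0.24). PRDX6 and PRDX4 were lower, and SESN1 higher, in 4 of 4 lines. Without a library other than EPN2 the calls of all 3 were lost (adjusted p up to 0.0892, 0.125 and 0.114), those of SESN1 and PRDX4 also without EPN2 in differentiation medium. With the block 5 were lower, among them the SRXN1 substrates PRDX1 (-0.47, adjusted p = 0.0493) and PRDX3 (-0.70, adjusted p = 0.0236), and 4 were higher, among them another substrate, PRDX2 (0.57, adjusted p = 0.0209). Of all tested genes 10.4% were lower and 9.49% higher with the block.

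In heme and iron handling, 11 of 15 genes were tested and 1 was past the threshold, beside 6.97% of all tested genes. With the line as a replicate block 3 of the 11 were lower and 2 higher, beside 10.4% and 9.49% of all tested genes. SLC40A1, which encodes the iron exporter ferroportin, rose from 8.67 ± 3.40 to 134 ± 102 CPM in 4 of 4 lines (adjusted p = 0.0213 from edgeR, log2 fold change 3.95 with SE 0.68), and lost its call without EPN1 in either medium or LPN in complete medium (adjusted p up to 0.0713). The ferritin light chain gene FTL had 1324 ± 283 and 932 ± 304 CPM (adjusted p = 0.258, log2 fold change -0.51 with SE 0.27, and adjusted p = 0.0471 with the line as a replicate block) and the transferrin receptor gene TFRC 130.1 ± 34.5 and 131 ± 44.2 CPM (0.981). HMOX2, the constitutive heme oxygenase, had 84.2 ± 35.5 and 67.3 ± 3.58 CPM (adjusted p = 0.458).

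The remaining lists are given together, beside 6.97% of all tested genes past the threshold. Of 10 NADPH supply genes ME1 alone was past the threshold, while IDH1 had 296 ± 59.7 and 338 ± 153 CPM (adjusted p = 0.723 from edgeR) and TKT 395 ± 85.4 and 232 ± 55.0 CPM (0.0697, and 0.0131 with the line as a replicate block). None of the 4 superoxide dismutase and catalase genes passed in edgeR, where 1 had an unadjusted p under 0.05 and DESeq2 called 1. Of all tested genes 27.3% had an unadjusted p under 0.05 in edgeR and DESeq2 called 19.9%, which are also the shares beside the counts of the next lists. CAT, which encodes catalase, had 81.5 ± 16.5 and 127 ± 22.7 CPM (adjusted p = 0.0753 from edgeR, and 0.0462 with the block), and SOD1 had 153 ± 17.7 and 138 ± 43.0 CPM (0.704). In the list of oxidant-producing NADPH oxidases, which also held the xanthine dehydrogenase gene XDH, 8 genes were tested. Of these 8, 0 passed in edgeR, with 2 at an unadjusted p under 0.05 and 2 called by DESeq2. With the block 2 of the 8 passed in edgeR, both higher, beside 9.49% higher of all tested genes. CYBA, a shared subunit, had 81.6 ± 12.8 and 109 ± 18.2 CPM (adjusted p = 0.156), and the oxidase maturation factor gene DUOXA1 a log2 fold change of 1.79 with SE 1.06 (0.312, and 0.0136 with the block). NOX4 had no count in any library. The list of selenoprotein synthesis also held genes of selenoproteins themselves (SELENOP, TXNRD2 and GPX4), and 7 of its genes were tested. Of these 7, 0 passed in edgeR, with 1 at an unadjusted p under 0.05 and 1 called by DESeq2. SELENOP, the secreted selenium carrier, had 80.4 ± 66.1 and 333 ± 235 CPM (adjusted p = 0.228, and 0.0244 with the block). Over the 10 lists, in which several genes occur more than once, 99 different genes were tested, 10 were lower and 2 higher (12.1% called, against 6.97% of all tested genes). With the line as a replicate block 19 were lower and 12 higher (31.3%, against 19.9% of all tested genes). The lists were chosen with earlier results of these data known, so these shares are a description and not a test. Of the genes called without the block, only TXN kept its call in every fit that left out 1 library.

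**Figure D5:**
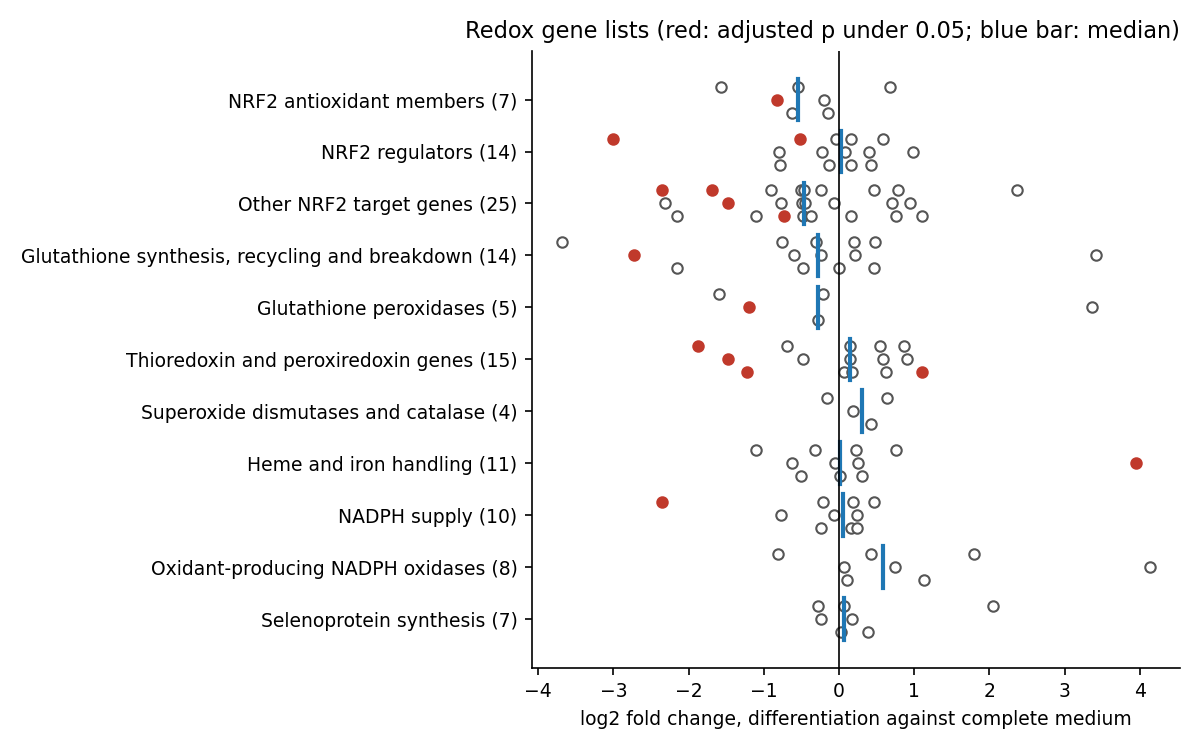
Log2 fold change of each tested gene (differentiation against complete medium, edgeR with the medium as the only term) by list, with the number of tested genes in parentheses, red points for an adjusted p-value under 0.05 and the median of the list as a blue bar. The medians of the 7 genes and of the other NRF2 target genes are -0.54 and -0.47, those of the oxidant-producing oxidases and of the thioredoxin list 0.58 and 0.14.

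For each of the 7 genes, the tested genes with the most similar pattern were sought by the root mean square difference of log2 CPM, centred on the gene's mean over the 8 libraries. The nearest to GCLC were EMC9 (0.134), VPS13C (0.147) and COX16 (0.157), to GCLM EFNA2 (0.104), TLE5 (0.148) and ERG28 (0.155), and to TXNRD1 MPP6 (0.145), NCF1 (0.203) and ABCA3 (0.206). SRXN1 was nearest to ATP5F1A (0.118), WDFY1 (0.123) and SUCLA2 (0.138), and GPX2 to ZNF462 (0.332), TMC7 (0.395) and RBBP8NL (0.408). NQO1 was nearest to PLA2G4A (0.439) and PLCB4 (0.563), and HMOX1 to CCND2 (0.280), SORD (0.291) and C11orf65 (0.293). None of the 7 had another of the 7 among its 3 nearest genes. The closest of them to NQO1 was HMOX1, at position 39 (0.839), the closest to HMOX1 was SRXN1, at position 45 (0.396), and the closest to GCLC was its partner GCLM, at position 2347 (0.453). The 8 libraries share 4 lines, so this likeness is a description and has no test.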

How the data were processed

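Poly(A) RNA of 8 PPDO cultures was sequenced by the authors. They ran salmon within nf-core on their own annotation of the pig genome (the labels list Sscrofa11.1), and the deposited table holds estimated counts for each gene, named raw. Whether these are scaled by gene length, as were the counts that entered the study's own tests, is not stated in the table. Of the 112 deposited values of the 7 genes, 111 lay within 0.01 of a whole number. Rows of a gene with the suffixes -iso and -ext were summed and rounded, and 8 reporter rows (0.00142% of counts) were left out.

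Media were assigned by sample titles, although another label names an endocrine induction medium for all 8 samples, and lines by the column headers. The libraries of a line share their origin, so the line was used as replicate block. Deviations from the medium means correlated at 0.400 to 0.657 for libraries of the same line and at -0.479 to 0.242 otherwise. R 4.3.3, edgeR 4.0.16 (TMM, default filter, quasi-likelihood test, Benjamini-Hochberg over 14475 genes, adjusted p under 0.05) and DESeq2 1.42.0 were used. The standard error is the log2 fold change over the root of F. The edgeR tests between media, with and without the block, and between lines were run on simulated counts. DESeq2 and the alternative filters and scalings were not. In the simulated counts only a small part of the genes differed between lines, and only in EPN2. They therefore cannot show how the fit without the block behaves under line differences like those of the real libraries. The study's differential expression used DESeq2 and its text names no term for the line. Without the block, p-values are set against the spread between cultures of 4 lines within a medium. With the block, they are set against the spread of the medium differences between the lines. The tests between lines use the same model as the block and its residual spread.

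The genes and lists were chosen with earlier results of these data known. Named genes are the 7, NFE2L2, KEAP1 and BACH1, and of each list up to 4 genes past the threshold or, where fewer than 2 passed, also the 2 most abundant. MAFG, MAFK, SLC7A11, GSS, GGT6, GPX3, GPX5, GPX6, HMOX2, NOX4, SLC48A1, PRDX1, PRDX2 and PRDX3 were named after their values were seen. Symbols missing from the table were looked up by identifier in a separate list of gene names, and BTRC and GSS, each standing for 2 genes, were taken as the gene of that symbol there. A few single-gene values that fall under these rules are not reported here.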

Additional observations from a re-analysis of the deposited data

Results flagged for a closer look

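In each medium, the highest and lowest of the 4 lines were compared with the other lines for each of the 7 genes, by the gap to the nearest value over the whole range (Dixon's ratio, at its 95% critical value). The ratio was taken on CPM and not on the log2 scale, on which high values stand out less. Of the 14 groups, 2 were past the critical value. Chance flags about 1 in 20 groups if the values are normally distributed, which was not checked, so the flags are a description only. NQO1 in complete medium had a ratio of 0.852, with EPN2 at 1759 CPM and the next line, Em, at 362. TXNRD1 in differentiation medium had a ratio of 0.849, with Em at 82.4 CPM and the next line, EPN1, at 51.1. The cause was not tested in either case.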

How the results depend on the processing

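Of the 7 genes, 1 was past the threshold between the media. The count was 1 with the line as a replicate block, 2 in DESeq2 with the line as a replicate block (GCLC and GCLM), 0 with library totals in place of TMM and 0 with no filter on low counts, where GCLC had adjusted p-values of 0.0588 and 0.0549. It was 0 to 1 when 1 library was left out, and 0 to 2 when 1 line was left out of the fit with the block, where the adjusted p of GCLC was 0.0858 without EPN1 and 0.0687 without LPN. Of all tested genes, 1009 were called, against 2885 with the block, 2884 in DESeq2, 5398 in DESeq2 with the block, 506 without the filter, 446 and 498 without Em in complete or differentiation medium, 70 to 177 without EPN1 or LPN in either medium, and 8 and 22 with the block but without the EPN1 or the LPN line. Between the lines, 0 of the 7 passed in edgeR and 3 in the likelihood ratio test of DESeq2. The log2 fold change ranged from -0.68 to 0.15 for HMOX1 and from -0.30 to 0.01 for SRXN1 when 1 library was left out, positive without EPN2 in complete medium, and no other of the 7 genes changed direction between the media in any of its alternatives. Apart from KEAP1, MAFG, SLC48A1, GGT6, PRDX1, PRDX2, PRDX3, FTL, TKT, CAT, DUOXA1 and SELENOP, which gained a call, the replicate block changed no call between media among the 7 genes, the regulators and the genes named from the other lists of the pathway. HMOX1, at 58 to 191 counts, is the one of the 7 genes whose values depth limits most.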
